A study of Mus musculus with 17 samples.

Results

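The genes described here are 9 components and regulators of the complement system, C1qa, C1qb, C1qc, C1ra, C1s1, C4b, C3, Cfb and Serping1, out of 55450 genes counted in 17 AB12 tumors. They were chosen by name, with earlier results of these data known, as the rows whose Ensembl identifiers carry these symbols in Gencode vM21. All 9 were found, and all 9 passed the filter on low counts in every comparison. AB12 cells, a mesothelioma line of mouse origin, were injected into the peritoneum of 8-week-old female BALB/c mice and grew there as tumors. Of the untreated tumors, 3 were collected on day 6 (d6), 5 on d10 and 3 on d14. Tumors of mice given intraperitoneal anti CTLA-4 (clone 9D9, 200 µg per injection), an antibody that blocks a checkpoint receptor of T cells, were collected on d10 (3 tumors) and on d14 (another 3). The treated d14 mice were injected on d6 and d10, and for the treated d10 mice only the sample labels were used. All mice carried the same cell line, and the labels name no control antibody for the untreated mice. Each group came from 3 or more independent mice, so in the groups of 3 every tumor had its own mouse, and for the 5 untreated d10 tumors this is not stated tumor by tumor.

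Complement is a cascade of plasma and tissue proteins that tags surfaces for phagocytes and can open pores in membranes. In the classical pathway C1q, a bundle of A, B and C chains, binds antibody or other ligands and activates the proteases C1r and C1s, which cleave C4 and C2 into an enzyme that cleaves C3. In the alternative pathway C3b binds factor B, which then acts as the protease of a second enzyme that cleaves C3, and C1 inhibitor, the product of Serping1, inactivates C1r and C1s. Most circulating complement is made by the liver, while C1q is made mainly by macrophages and dendritic cells, and fibroblasts and other stromal cells make C1r, C1s, C3, C4 and C1 inhibitor.

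The 9 genes lie on 4 chromosomes of GRCm38. C1qb (chr4:136880129-136886187), C1qc (chr4:136889804-136893065) and C1qa (chr4:136895917-136898803) follow each other on the minus strand of chromosome 4. C1ra (chr6:124512405-124523443, plus strand) and C1s1 (chr6:124530345-124542359, minus strand) are neighbours on chromosome 6. C4b (chr17:34728380-34743882), Cfb (chr17:34856374-34862518) and C3 (chr17:57203970-57228136) lie on the minus strand of chromosome 17, and Serping1 (chr2:84765387-84775444) on the minus strand of chromosome 2. All are protein coding genes, and their counts cover exons.

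RefSeq promoter sequences of build GRCm38.p6 were matched by symbol to 5 of the 9 genes (C1qb, C1qc, C1ra, C1s1 and C3). None was matched to C1qa, C4b, Cfb and Serping1. The stretches of C1qb and C1qc are shown because these genes fell together from d10 to d14 and were both higher in treated than in untreated d14 tumors, and that of C3 because it had the widest range of the 9 genes. Each reads 5′ to 3′ on the minus strand toward the transcription start, and the stretch of C1qc stops where the first annotated exon begins. Capitals mark the letters GAGGAA, a core of sites for the myeloid factor PU.1, in C1qb and, read from the other strand, in C1qc. In C3 they mark a match to TTGCNNAA, a form of the C/EBP site, where N is any base.
C1qb (chr4:136886201-136886450): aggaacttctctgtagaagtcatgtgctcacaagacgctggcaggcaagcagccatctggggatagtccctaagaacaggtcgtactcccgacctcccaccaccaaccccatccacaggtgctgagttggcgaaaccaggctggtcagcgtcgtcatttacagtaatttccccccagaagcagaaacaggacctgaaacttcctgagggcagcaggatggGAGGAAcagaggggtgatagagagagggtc
C1qc (chr4:136893066-136893164): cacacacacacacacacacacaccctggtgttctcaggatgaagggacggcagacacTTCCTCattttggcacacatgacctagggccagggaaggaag
C3 (chr17:57228137-57228386): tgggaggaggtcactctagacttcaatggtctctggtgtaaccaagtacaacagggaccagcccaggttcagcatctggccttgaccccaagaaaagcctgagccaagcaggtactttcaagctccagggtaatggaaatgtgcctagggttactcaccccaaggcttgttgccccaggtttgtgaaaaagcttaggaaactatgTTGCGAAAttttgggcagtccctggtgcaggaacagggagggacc

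In the 250 bases before the RefSeq start, searched on both strands, GAGGAA was found in C1qb and C1qc among the 5 genes and in 23.3% of 32851 promoter entries. TTGCNNAA was found in C3 and C1s1 and in 9.56% of entries. None of the 5 windows held an interferon-stimulated response pattern of GAAA, any 2 bases and GAAA (2.98% of entries) or an NF-kappaB pattern of GGG, any 2 bases, TT, any 1 base and CC (4.11%). Of the 250 bases searched, 216 in C1ra and 151 in C1qc lay within annotated exons of Gencode vM21, and none did in the other windows. A match or its absence describes letters in these windows and no binding.

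Library totals ranged from 46371577 to 96759833 counts (median 72413343), and levels are given as CPM (counts scaled to library size) normalized by TMM over the 17 libraries. The 5 untreated d10 tumors fell into distinct sets for one noncoding gene, Mir6236, which had 3964 to 12332 counts in replicates 1 to 3 and 141 to 176 counts in replicates 4 and 5. Between these sets 4376 of 17321 genes (25.3%) passed the test, but none of the 9 complement genes did (edgeR, adjusted p from 0.13 to 0.98). Mir6236 separated whole groups as well, with 3387 to 4697 counts at d6, 205 to 1244 in treated d10 tumors and 5 to 24 in all 6 d14 tumors, so comparisons between time points run along it. The tumors were sequenced in more than one project, on different instruments and at different read lengths, and the study set aside genes that differed between projects. Which project each tumor belonged to is not given in the sources used here, and its part in these comparisons was not tested. Transcripts of pancreatic acinar cells (the sum of Cela1, Cpa1, Prss2 and Pnlip) were at 949 and 311 normalized CPM in treated d14 replicates 1 and 3, and at 2.88 or below in the other 15 tumors.

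C1qa, C3 and C1qb were the most abundant of the 9 transcripts per length of exon in untreated d10 tumors. As CPM per kilobase of exon, the untreated d10 tumors held 488 ± 114 of C1qa (SD, n = 5), 378 ± 72.7 of C3 and 351 ± 93.9 of C1qb, whose ranges overlapped. Serping1 (187 ± 32.1), C1qc (182 ± 49.3) and C1s1 (116 ± 11.4) came next, with C1qc overlapping both of its neighbours, and C4b (63.8 ± 11.1) and C1ra (44.8 ± 1.97) came last of the 8 genes, with overlapping ranges as well. In treated d14 tumors C3 was at 703 ± 156 (SD, n = 3) and led the order without overlap with C1qa (362 ± 41.2). Cfb was counted far below the others, at 1.26 to 4.82 normalized CPM (72 to 330 counts). Gm20547, which had no count in any tumor, overlaps 2246 of the 2825 exon bases of Cfb on the same strand, so the level of Cfb per length cannot be compared with the rest. The close paralogs C1rb (0.87 to 3.16), C1s2 (3.15 to 9.24) and C4a (4.03 to 15.5 normalized CPM) were all far below C1ra, C1s1 and C4b, and how reads shared with them were assigned was not tested.

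Between d6 and d10 of untreated growth, 4 of the 9 genes rose (C3, Serping1, C1s1 and C4b) and none fell, where 17.5% of all 16866 genes tested passed (edgeR's quasi-likelihood test, Benjamini-Hochberg adjusted p below 0.05), 10.5% higher and 7.03% lower. Only C3 of the 9 was beyond a fold of 2 as well, as were 7.45% of all genes. Between d10 and d14, 5 fell (C1qa, C1qb, C1qc, C1ra and Serping1) and none rose, against 19.7% of all genes (9.8% higher and 9.87% lower). The 3 C1q genes were beyond a fold of 2, against 7.23% of all genes. From d6 to d14, 4 were lower (C1qa, C1qb, C1qc and C1ra) and 1 was higher (C1s1), against 51.5% of all genes (25.5% higher and 26% lower), a share close to that of the 9. Here too the 3 C1q genes were beyond a fold of 2, against 19% of all genes.

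In treated relative to untreated d14 tumors 7 of the 9 genes were higher and none lower, against 32.4% of all genes (17.7% higher and 14.8% lower). Of these, 5 were beyond a fold of 2 (C1qa, C1qb, C1qc, C3 and Serping1), against 11.5% of all genes. The median log2 fold change of the 9 genes in that comparison was 1.13, and that of all genes tested was -0.0043. The study had already reported complement pathways as positively regulated in treated relative to untreated d14 tumors. That result came from the same data, so the count of the 9 genes is not separate from it. The comparisons share tumors, so their counts are not independent of each other.

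The calls between untreated time points were also made against each set of d10 tumors. The 4 genes that rose from d6 to d10 passed with d10 replicates 1 to 3, whose Mir6236 counts were closer to those of d6 (C3 1.24, C1s1 0.82, Serping1 0.77 and C4b 0.43), and with replicates 4 and 5 (0.91, 0.72, 0.81 and 0.69). C1qb passed with replicates 1 to 3 alone (0.54, against 0.04 with replicates 4 and 5). The 5 genes that fell from d10 to d14 passed with replicates 4 and 5, whose Mir6236 counts were closer to those of d14 (C1qa -1.47, C1qb -1.24, C1qc -1.57, C1ra -0.60 and Serping1 -0.78), and with replicates 1 to 3 (-1.58, -1.71, -1.55, -0.65 and -0.70). Here 5920 of 17850 and 5924 of 17400 of all genes passed in either direction.

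**Figure D1:**
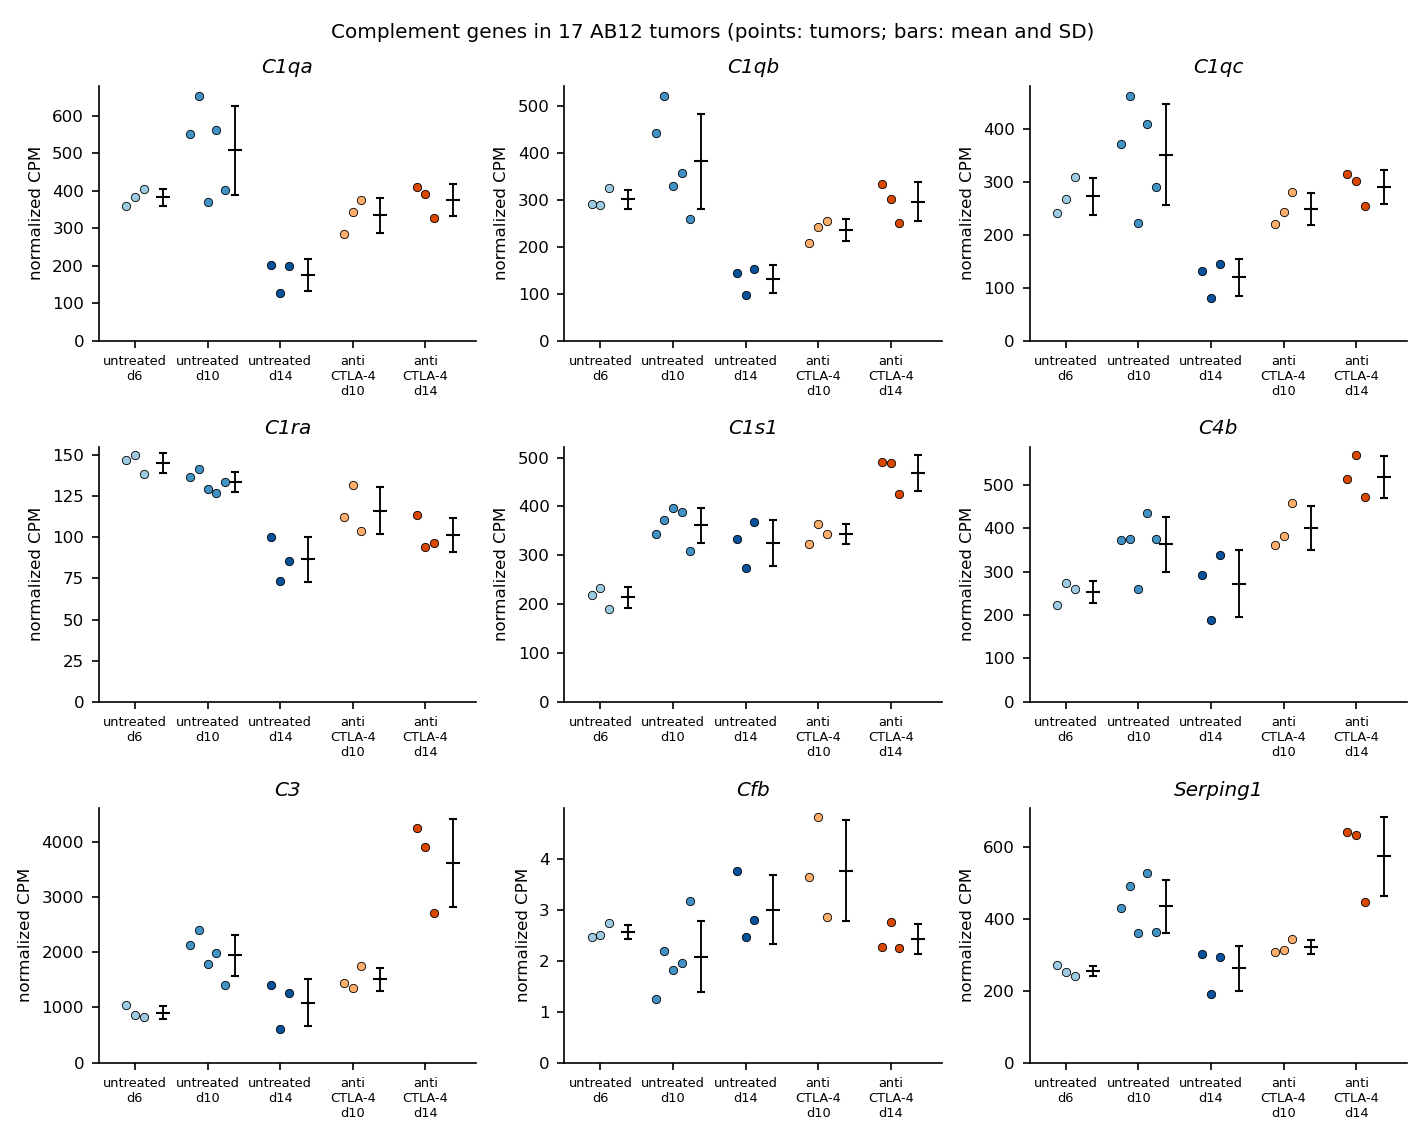
Normalized CPM (y axis, linear, from 0) of each complement gene in the 17 tumors, by group (x axis). Points are tumors and bars are the mean ± SD. The treated d14 tumors were the highest for C3, C1s1 and C4b without overlap, and the untreated d14 tumors the lowest for the C1q chains.

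C1qa, C1qb and C1qc, the chains of the C1q recognition molecule, did not pass the test from d6 to d10 and fell from d10 to d14 by similar folds. C1qa was at 359, 382 and 405 normalized CPM at d6, at 552, 653, 371, 561 and 402 at d10, and at 202, 126 and 198 at d14. In treated tumors it was at 284, 344 and 377 at d10 and at 409, 391 and 328 at d14. Every untreated d14 tumor was below every tumor of the other 4 groups. C1qb was at 292, 289 and 325 normalized CPM at d6, at 443, 522, 330, 357 and 259 at d10 and at 144, 97.4 and 153 at d14, and C1qc ran from 242 to 310, from 224 to 463 and from 80.8 to 146 in the same groups. Both had, like C1qa, their lowest tumors in the untreated d14 group with no overlap.

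From d6 to d10 none of the C1q chains passed the test (log2 fold changes of 0.43 ± 0.18 (SE), 0.36 ± 0.20 and 0.39 ± 0.21 for C1qa, C1qb and C1qc, adjusted p = 0.12, 0.23 and 0.24). From d10 to d14 all 3 fell beyond a fold of 2, with log2 fold changes of -1.54 ± 0.22, -1.54 ± 0.23 and -1.56 ± 0.26 (adjusted p = 0.006, 0.0064 and 0.0076). Relative to d6 the untreated d14 tumors were also lower, by -1.11 ± 0.16, -1.18 ± 0.15 and -1.17 ± 0.20. Treated d14 tumors held more than untreated d14 tumors, with log2 fold changes of 1.13 ± 0.19, 1.20 ± 0.18 and 1.31 ± 0.21 (adjusted p = 0.0068, 0.006 and 0.0066), and relative to untreated d10 tumors the 3 chains did not pass (-0.47, -0.41 and -0.32, adjusted p = 0.084, 0.16 and 0.29). In bulk tumor RNA fewer cells of a type and less RNA per cell cannot be told apart.

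Because macrophages are a main source of C1q, its chains were set beside 8 macrophage markers (Adgre1, Csf1r, Cd68, Fcgr1, Mrc1, Mertk, Cd14 and C5ar1). The summed markers were at 860 to 964 normalized CPM at d6, 914 to 1361 at d10, 586 to 777 at d14, 948 to 1090 in treated d10 tumors and 1178 to 1428 in treated d14 tumors. From d10 to d14 of untreated growth 3 of the 8 markers fell and none rose (median log2 fold change -0.59), and in treated relative to untreated d14 tumors 6 of 8 were higher and none lower (median 1.03). The macrophage markers moved in the same direction as C1q in both comparisons. Dendritic cell markers (Flt3, Zbtb46, Xcr1 and Clec9a) were read as well. From d10 to d14 none of these 4 passed (median 0.09). In treated relative to untreated d14 tumors 1 of 4 was higher and none lower (median 0.20). The part of either list in the C1q result was not tested.

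Relative to the macrophage markers C1q was lower in untreated d14, treated d14 and treated d10 tumors than in untreated d6 and d10 tumors. C1qa amounted to 42.7 ± 3.67 CPM per 100 CPM of the markers at d6 (SD, n = 3), 45.9 ± 4.20 at d10 (n = 5) and 25.0 ± 3.19 at d14 (n = 3). In treated tumors it amounted to 33.2 ± 3.96 at d10 (n = 3) and 28.1 ± 0.94 at d14 (n = 3). No tumor of these 3 lower groups reached the lowest d6 or untreated d10 tumor, for C1qa (highest 36.3 against lowest 39.7) or for C1qb (25.6 against 27.2), while for C1qc they overlapped (25.8 against 24.5). Between treated and untreated d14 tumors the ratio of C1qa overlapped (27.4 to 29.2 and 21.6 to 27.9), whereas the treated tumors were above the untreated ones without overlap for C1qb (21.2 to 23.9 and 16.6 to 19.9) and for C1qc (21.1 to 22.6 and 13.8 to 18.8). These ratios were formed after the levels were seen and were not tested. The ratios among the chains varied less, at 1.33 ± 0.12 for C1qa to C1qb and 0.95 ± 0.12 for C1qc to C1qb in CPM over all 17 tumors (SD). The untreated d10 tumors alone spanned the whole range of both ratios (1.12 to 1.57 and 0.68 to 1.15). In d10 replicates 4 and 5 relative to 1 to 3, C1qb differed by log2 -0.49, C1qa by -0.13 and C1qc by -0.01, none passing.

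C1ra and C1s1, the neighbouring genes of the C1r and C1s proteases, did not follow each other. C1ra was at 147, 150 and 138 normalized CPM at d6, at 137, 142, 129, 127 and 134 at d10 and at 100, 73.5 and 85.6 at d14, so every d14 tumor was below every d6 and d10 tumor. C1s1 was at 219, 233 and 190 at d6, at 343, 373, 396, 388 and 309 at d10 and at 333, 274 and 369 at d14, so every d6 tumor was below every later one. In treated tumors C1ra was at 112, 132 and 104 at d10 and at 113, 94.4 and 96.4 at d14, and C1s1 at 322, 365 and 343 and at 490, 490 and 425. The treated d14 tumors held the highest C1s1 levels of the series without overlap, whereas their C1ra levels overlapped those of untreated d14 tumors.

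C1ra did not pass from d6 to d10 (-0.09 ± 0.08, adjusted p = 0.47) and fell from d10 to d14 (-0.63 ± 0.11, adjusted p = 0.0087). C1s1 rose from d6 to d10 (0.78 ± 0.12, adjusted p = 0.0021) and did not pass from d10 to d14 (-0.16 ± 0.12, adjusted p = 0.38). From d6 to d14 the pair went in opposite directions, with -0.73 ± 0.11 for C1ra (adjusted p = 8e-04) and 0.62 ± 0.12 for C1s1 (adjusted p = 0.0024). Treated d14 tumors were higher than untreated d14 tumors in C1s1 (0.56 ± 0.12, adjusted p = 0.014) and did not pass in C1ra (0.26 ± 0.13, adjusted p = 0.17, 95% interval -0.11 to 0.63). The gene Gm16567, counted at 1.23 to 10.2 normalized CPM, overlaps exons of C1s1 on the opposite strand, and whether counting used strand is not given in the sources used here.

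The CPM of C1ra relative to that of C1s1 was 0.68 ± 0.04 at d6 (SD, n = 3), 0.37 ± 0.05 at d10 (n = 5), 0.27 ± 0.03 at d14 (n = 3), 0.34 ± 0.03 in treated d10 tumors (n = 3) and 0.22 ± 0.02 in treated d14 tumors (n = 3). The d6 tumors (0.64 to 0.73) stood above all others, the untreated d10 tumors (0.33 to 0.43) stood above the d14 tumors (0.23 to 0.30), and the treated and untreated tumors overlapped on d10, whereas on d14 the highest treated tumor (0.2312) lay just under the lowest untreated one (0.2323). This ratio was chosen after the levels were seen and was not tested.

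**Figure D2:**
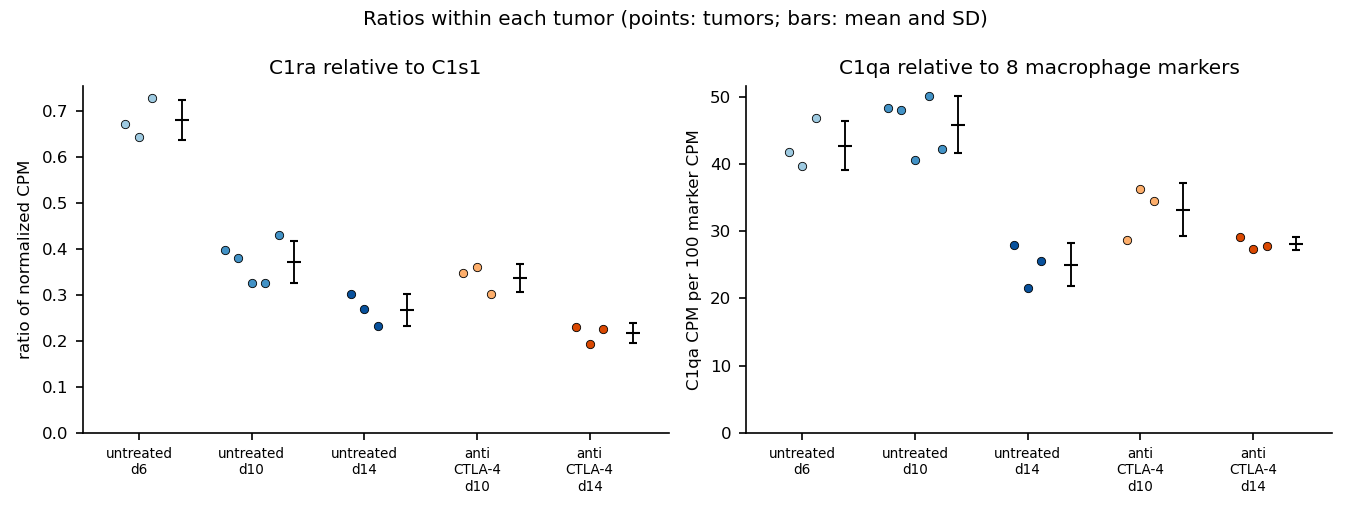
Left, CPM of C1ra divided by CPM of C1s1, and right, C1qa CPM per 100 CPM of 8 macrophage markers (y axes, linear, from 0), by group (x axis). Points are tumors and bars are the mean ± SD. The left ratio is highest at d6 (0.64 to 0.73), and the right one is at 39.7 or more in all d6 and untreated d10 tumors and at 36.3 or less in the other 9 tumors.

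C4b and C3 encode the proteins that the cascade cleaves and deposits. C3 was at 1039, 857 and 827 normalized CPM at d6, at 2125, 2396, 1793, 1994 and 1399 at d10 and at 1406, 601 and 1257 at d14. In treated tumors it was at 1448, 1346 and 1742 at d10 and at 4240, 3898 and 2715 at d14. Every treated d14 tumor was above every other tumor of the series. The range of C3 over the 17 tumors, 7.05-fold, was the widest of the 9 genes.

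C3 rose from d6 to d10 (1.12 ± 0.17, a 2.17-fold rise, adjusted p = 0.0024), the only one of the 9 genes beyond a fold of 2 there. Its level at d14 did not pass the test against d10 (-0.84 ± 0.27, adjusted p = 0.052) or against d6 (0.28 ± 0.26, adjusted p = 0.40). The d10 to d14 value passed in 5 of its 16 alternatives. Among them were DESeq2 (-0.84), untreated d10 replicates 1 to 3 (-0.95) and the fit without d10 replicate 5 (-0.93). It did not pass with replicates 4 and 5 (-0.66). The d6 to d14 value passed without untreated d14 replicate 2 (0.57 ± 0.12). Treated d14 tumors held 3.39-fold as much C3 as untreated d14 tumors (log2 fold change 1.76 ± 0.32, adjusted p = 0.0084) and 1.82-fold as much as untreated d10 tumors (0.86 ± 0.19, adjusted p = 0.010).

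C4b was at 224, 275 and 260 normalized CPM at d6, at 372, 374, 261, 435 and 375 at d10, and at 292, 188 and 338 at d14, and the 3 groups overlapped. In treated tumors it was at 362, 382 and 458 at d10 and at 514, 568 and 472 at d14. The treated d14 tumors again stood above all others. The rise of C4b from d6 to d10 passed the test (0.55 ± 0.15, adjusted p = 0.036), but the call was lost when any 1 of 7 of these 8 tumors was left out (0.47 to 0.60) and was kept without d10 replicate 3 (0.64). From d10 to d14 it did not pass (-0.42 ± 0.20, adjusted p = 0.16), and in treated relative to untreated d14 tumors it was higher (0.96 ± 0.20, adjusted p = 0.013).

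Cfb, the alternative pathway protease factor B, was the 1 gene of the 9 that passed in none of the comparisons between groups. Its levels were at 2.47, 2.50 and 2.73 normalized CPM at d6, at 1.26, 2.18, 1.83, 1.96 and 3.17 at d10, and at 3.75, 2.46 and 2.80 at d14. In treated tumors it was at 3.64, 4.82 and 2.85 at d10 and at 2.27, 2.76 and 2.26 at d14. All 5 groups overlapped at least one other, and the highest single level was in a treated d10 tumor. Treated and untreated d14 tumors differed by -0.28 ± 0.22 (adjusted p = 0.35, 95% interval -0.87 to 0.32).

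Serping1 encodes C1 inhibitor, the serpin that blocks C1r and C1s. It was at 272, 252 and 242 normalized CPM at d6, at 430, 491, 362, 527 and 362 at d10, at 303, 191 and 294 at d14, at 307, 313 and 343 in treated d10 tumors and at 640, 634 and 447 in treated d14 tumors. Every d10 tumor was above every d6 and untreated d14 tumor, while d6 and untreated d14 tumors overlapped. Serping1 rose from d6 to d10 (0.79 ± 0.14, adjusted p = 0.0052), fell from d10 to d14 (-0.73 ± 0.18, adjusted p = 0.025) and at d14 did not differ from d6 at this threshold (0.06 ± 0.16, adjusted p = 0.78, 95% interval -0.38 to 0.49). Treated d14 tumors held 2.23-fold as much as untreated d14 tumors (1.16 ± 0.21, adjusted p = 0.0084). The fall from d10 to d14 was lost without d10 replicate 1 (-0.74) or 2 (-0.68) or without d14 replicate 2 (-0.55).

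**Figure D3:**
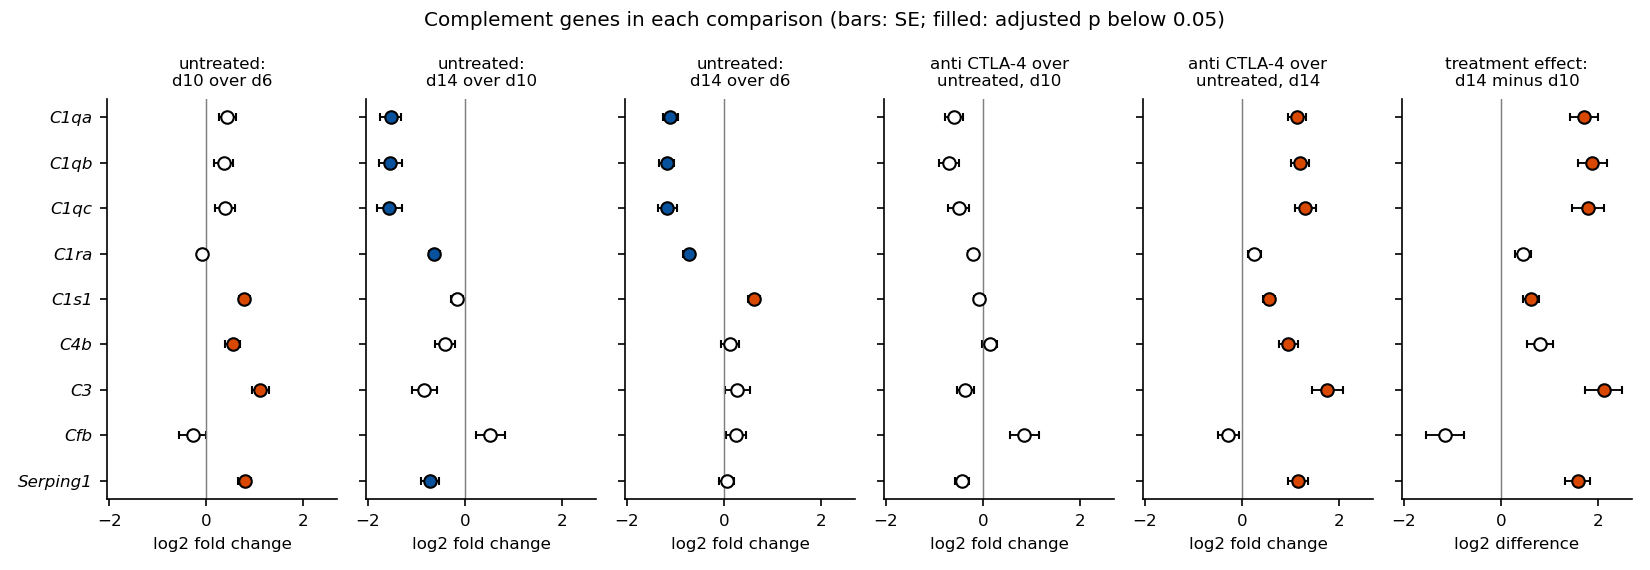
Log2 fold change (x axis) of each complement gene (y axis) in 5 comparisons and, at the far right, the difference between the treatment effects of d14 and d10. Bars are the SE, and filled points passed an adjusted p below 0.05 (orange higher, blue lower). Treated over untreated d14 tumors had 7 filled points, all higher, and treated over untreated d10 tumors had none.

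In treated relative to untreated d14 tumors the 7 genes past the test (C1qa, C1qb, C1qc, C1s1, C4b, C3 and Serping1) did not overlap between the 6 tumors, as was the case for 51.9% of all genes tested. Untreated d14 replicate 2 was the lowest tumor of the series for C1qa, C1qb, C1qc, C1ra, C3, C4b and Serping1. Its macrophage markers (586 normalized CPM) and its fibroblast markers (1636) were the lowest of all tumors too. Without it the same 7 genes passed, C1qa and Serping1 came under a fold of 2 (0.93 and 0.96 on the log2 scale) and C3 was at 1.46. Treated replicate 2, at 2.88 normalized CPM of acinar transcripts, had 3898 normalized CPM of C3, between its fellow replicates, and the highest C4b of all tumors. Liver markers (Alb, Apoa1, Apoa2, Ttr, Serpina1a and Fga) summed to 5.14 and 1.42 normalized CPM in treated d14 replicates 1 and 3. In all other tumors of the series they summed to 0.243 or below. The part of acinar and liver transcripts in the complement result was not tested.

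Fibroblast markers moved with these genes as well. Their sum (Col1a1, Col1a2, Col3a1, Dcn, Lum and Pdgfra) was at 3704 to 5653 normalized CPM in treated d14 tumors and at 1636 to 2944 in untreated ones. All 6 markers were higher in the treated tumors (median log2 fold change 1.18), and their part in the result was not tested. Of the 13 type I interferon response genes (among them Ifit1, Isg15 and Mx1), all 13 fell from d6 to d10 (median -2.89), where 4 complement genes rose, and 10 of 13 were lower in treated than in untreated d14 tumors (median -0.68), where 7 complement genes were higher. Among the lists with higher and no lower members there were the T cell markers (Cd3d, Cd3e, Cd6, Cd8a and Cd8b1, 5 of 5 higher, median 0.98) and the acute phase genes (Saa3, Lcn2, Hp, Orm1, Il6, Socs3, Il1b and Tnf, 6 of 8 higher, median 0.98). So were markers of neutrophils (2 of 5, median 0.80), mesothelium (2 of 5, 1.46) and endothelium (2 of 4, 0.65). Adipocyte (1 of 3 tested) and pancreatic acinar markers (3 of 3 tested) were others. Of all genes tested 17.7% were higher and 14.8% lower. The summed mesothelium markers overlapped, at 439 to 487 normalized CPM in treated and 430 to 636 in untreated d14 tumors. Their lowest log2 fold change was -0.38. Of 11 interferon gamma response genes 2 were higher and 2 lower (median 0.0072). The part of these lists in the complement result was not tested.

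On d10 none of the 9 genes passed between treated and untreated tumors, where 3 of 17258 genes did (0.0174%, all higher and beyond a fold of 2). At an unadjusted p below 0.05, 5 of the 9 did (C1qa, C1qb, C1qc and Serping1, lower in treated tumors, and Cfb, higher), against 2329 genes (13.5%), and DESeq2 called 1 (C1qb, -0.69). The result depended on the untreated tumors used. Against untreated d10 replicates 1 to 3 alone, 5 genes passed, with C1qa (-0.64), C1qb (-0.86), C3 (-0.47) and Serping1 (-0.40) lower and Cfb (1.11) higher in treated tumors, and 5020 of all genes passed as well. Against replicates 4 and 5 alone none of the 9 and 108 of all genes passed, with C1qb at -0.39, C3 at -0.17 and Cfb at 0.55. Treated d10 tumors had 205 to 1244 counts of Mir6236, between the values of both sets of untreated tumors.

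The treatment effect on d14 was then compared with that on d10 in one fit of the 4 groups. The injections of the treated d10 mice are not given in the sources used here. Day therefore cannot be told apart from the number and timing of injections. It was larger on d14 for 6 of the 9 genes, where 17.7% of all genes passed, 11.9% in that direction and 5.85% in the other. For 5 of them the difference was beyond a fold of 2, against 11.8% of all genes. The differences of the log2 fold changes were 1.72 ± 0.29 for C1qa, 1.89 ± 0.30 for C1qb, 1.80 ± 0.33 for C1qc, 0.62 ± 0.17 for C1s1, 2.12 ± 0.37 for C3 and 1.58 ± 0.26 for Serping1 (adjusted p from 0.0034 to 0.022). C4b (0.81 ± 0.27, adjusted p = 0.051), C1ra (0.45 ± 0.17, adjusted p = 0.075) and Cfb (-1.14 ± 0.39, adjusted p = 0.059) did not pass. For C1qa, C1qb, C1qc, C3 and Serping1 the difference passed against either set of untreated d10 tumors and without any 1 tumor, while that of C1s1 was lost in 5 of the 14 fits with 1 tumor left out (without untreated d14 replicate 2, treated d10 replicate 1 or 3, or treated d14 replicate 1 or 2, 0.49 to 0.62).

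Treated d14 tumors were also set against untreated d10 tumors. C3 (0.86), C4b (0.47 ± 0.15, adjusted p = 0.045) and C1s1 (0.33 ± 0.11, adjusted p = 0.047) were higher and C1ra was lower (-0.44 ± 0.10, adjusted p = 0.0099), where 27.7% of all genes passed (12.4% higher and 15.3% lower). None reached a fold of 2, as 7.83% of all genes did, and none of the 9 passed without treated d14 replicate 2. Against d10 replicates 1 to 3 C1qa (-0.51) and C1qb (-0.57) passed too, and against replicates 4 and 5 they did not (-0.38 and -0.08).

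Beyond these 9 genes, 46 other genes of the system were read from a list by role. From d6 to d10, 7 of 32 tested members rose and 2 fell (10.5% and 7.03% of all genes), with Cd93, a receptor of endothelial and myeloid cells (1.40 ± 0.25), and Cd55, a membrane regulator that dissociates the C3 convertases (1.01 ± 0.26), beyond a fold of 2. From d10 to d14, 1 of 33 rose (Masp2, a protease of the lectin pathway, 1.86 ± 0.57, at 0.19 and 0.59 normalized CPM at the median) and 11 fell (9.8% and 9.87% of all genes). The largest falls were those of Cfd, factor D of the alternative pathway (-2.95 ± 0.54), of C6, a part of the membrane attack complex (-1.68 ± 0.32), and of Itgax, the alpha chain of complement receptor 4 (-1.60 ± 0.27). The call of Masp2 was lost in 9 of its 16 alternatives. Cfd is also an adipocyte gene, and the 3 tested adipocyte markers fell with it (median -2.40), whose part in its fall was not tested. From d6 to d14, 18 of 33 passed, a share close to the 51.5% of all genes. Of these 7 were higher, led by Masp2 (2.07 ± 0.59), Cpn1 (1.83 ± 0.44) and Cd93 (1.76 ± 0.15), and 11 lower, led by Cfd (-3.69 ± 0.61), Vtn (-1.82 ± 0.44) and C6 (-1.62 ± 0.17).

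In treated relative to untreated d14 tumors 17 of 34 tested members of this list were higher and 2 lower (median log2 fold change 0.76), against 17.7% and 14.8% of all genes. Of 10 regulators 6 were higher, of 9 receptors 6, of 10 genes of the classical and lectin pathways 3, of 3 terminal genes 1 and of 2 alternative pathway genes 1. The largest change beyond a fold of 2 was that of Vtn (4.59 ± 0.87), whose product vitronectin binds the terminal complex, followed by Cfi, which encodes factor I, the protease that inactivates C3b and C4b, and by C6 (1.51 ± 0.14). Vtn and Cfi rested on few reads. Vtn had 7, 6 and 4 counts in untreated d14 tumors and 333, 32 and 117 in treated ones, and Cfi had 3, 2 and 4 and 60, 12 and 16. The order of the treated tumors in both genes was that of their acinar transcripts and of their liver markers (5.14, 0.065 and 1.42 normalized CPM), whose part was not tested. C6 was at 8.01 to 9.17 normalized CPM in treated and at 2.89 to 3.39 in untreated d14 tumors.

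Other regulators and receptors were picked after their values were seen. Cd55 (1.47 ± 0.22) and Cd59a, which blocks the membrane attack complex (1.11 ± 0.20), were higher in treated d14 tumors, and so were the anaphylatoxin receptor genes C3ar1, C5ar1 and C5ar2 (0.92 ± 0.13, 0.73 ± 0.11 and 1.06 ± 0.23). The 2 lower genes were C2, the classical pathway protease that is the counterpart of factor B (-0.56 ± 0.12), and Cr1l, a membrane regulator (-0.42 ± 0.07). On d10 none of the 33 tested members passed. The treatment effect was larger on d14 than on d10 for 14 of 34 members, led by Vtn, Cfi and Cfd (2.79 ± 0.72), and smaller for 2 (11.9% and 5.85% of all genes). Relative to untreated d10 tumors, treated d14 tumors were higher in 5 and lower in 5 of 34, a share close to the 27.7% of all genes, among them Vtn (2.57 ± 0.67), Masp2 (1.91 ± 0.52) and Cd55 (1.17 ± 0.25) higher and Cfd (-1.91 ± 0.43) lower.

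**Figure D4:**
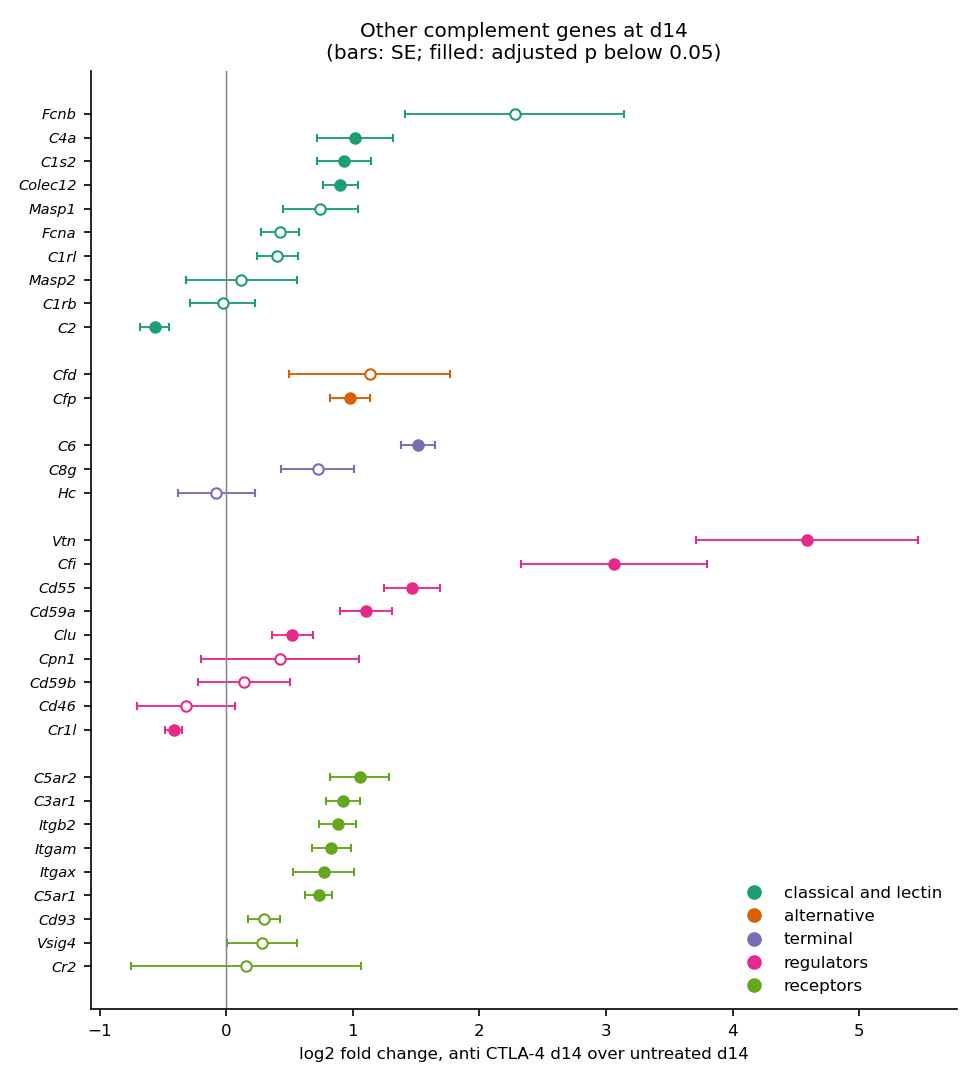
Log2 fold change in treated relative to untreated d14 tumors (x axis) of 33 of the 34 tested genes of the wider complement list (y axis), coloured by role. Bars are the SE, and filled points passed an adjusted p below 0.05. Of the filled points 16 lie to the right of 0 and 2, those of C2 and Cr1l, to the left.

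For each of the 9 genes the protein coding genes with the most similar profile over the 17 tumors were taken (2 are given for C1ra and 3 for each of the others), as the smallest root mean square difference of centred log2 CPM among 9548 other genes (9549 for Cfb) whose mean level was 10 normalized CPM or more. C1qa was nearest to C1qc (0.10) and C1qb (0.12), and then to Ctsz (0.17), which encodes cathepsin Z, where the median gene was at 0.61. C1qb was nearest to C1qa, C1qc (0.18) and Ctsz (0.19), and C1qc to C1qa, Cotl1 (0.17) and Spi1 (0.18), which encodes PU.1. C3 was nearest to Myrf (0.21), Sirpa (0.23) and Mylip (0.25), with the median gene at 0.80, and Serping1 to Efnb1 (0.12), Dkk3 (0.15) and Olfml3 (0.15), with the median gene at 0.56.

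C1ra and C1s1 did not appear in each other's list. C1ra was nearest to Psmd8 (0.087) and Rab8a (0.10), and C1s1 to Rbl2 (0.13), Kif3c (0.13) and Fstl1 (0.14). C4b was nearest to Ttyh3 (0.13), Camta2 (0.15) and Tent5c (0.15), and Cfb to the ribosomal protein gene Rpl6 (0.21), Erh (0.23) and Eif4a1 (0.24). Genes with a small spread over the tumors have small differences to many genes, so these distances are not comparable between members.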

How the data were processed

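RNA of 17 AB12 tumors was extracted with TRIzol, made into libraries with the KAPA RNA HyperPrep kit and sequenced on Illumina instruments. The deposited values are raw counts per gene, which the authors made by aligning reads to GRCm38 with TopHat2 (2.0.14), keeping uniquely mapped reads and counting them with HTSeq on Gencode vM21. Reads shared by close paralogs or overlapping genes are therefore dropped or assigned by that rule, and the strand setting is not given in the sources used here. Genes were filtered by filterByExpr and TMM normalized, and each comparison was fitted on all genes of its groups with edgeR (4.0.16, R 4.3.3) by the quasi-likelihood test, with Benjamini-Hochberg adjusted p. The SE is the log2 fold change divided by the root of its F value. DESeq2 (1.42.0), other scalings, no filter, all 5 groups in one fit, a replicate block, sets of untreated d10 tumors and each tumor left out were alternatives. The profile distances used log2(CPM + 0.5). The complement genes, the wider list (all genes past the test and a fold of 2, at most 3 per direction, named) and the marker lists were chosen with earlier results of these data known. A few single results are not reported here.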

Additional observations from a re-analysis of the deposited data

Results flagged for a closer look

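For 6 complement genes the effect of anti CTLA-4 differed between d14 and d10 by the test of the difference itself (edgeR's quasi-likelihood test in one fit of the 4 groups). As stated above, day cannot be told apart from the injections given. The log2 fold change on d14 minus that on d10 was 1.7184 for C1qa, 1.8874 for C1qb, 1.8017 for C1qc, 0.6228 for C1s1, 2.1158 for C3 and 1.5848 for Serping1. For each of the 6 the treated tumors were higher on d14 by an effect that passed the test (log2 fold change 0.56 to 1.76), and on d10 the effect was below 0 and did not pass with all untreated d10 tumors. Against untreated d10 replicates 1 to 3 alone, C1qa, C1qb, C3 and Serping1 passed on d10 as lower in treated tumors. The untreated d10 group was the one group with enough tumors for a test of outliers. Dixon's test flagged no tumor for any of the 9 genes (highest Q 0.64, for C4b, against a critical value of 0.71). With 5 tumors it can miss an outlier, above all where tumors differ together.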

How the results depend on the processing

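With 3 tumors in 4 of the 5 groups, single calls near the threshold depended on single tumors, and Cfb, Vtn, Cfi and Masp2 rested on few reads in libraries of 46371577 counts or more. Of the log2 fold changes of the 9 genes, 428 kept direction and call under alternatives other than leaving out a tumor, 34 gained a call, 3 lost one and 3 reversed. With 1 tumor left out 477 kept both, 11 gained, 31 lost and 3 reversed, and the cause was not tested. The reversed values were small. With untreated d10 replicates 4 and 5 alone they were 0.0132 for Cfb (d10 against d6), -0.0235 for C4b (treated against untreated d10) and -0.1134 for Cfb (treated d14 against untreated d10). For d14 against d6 they were -0.0517 for Serping1 without untreated d14 replicate 1 and, without replicate 3, -0.0084 for Serping1 and -0.0344 for C4b. Without replicate 2 Serping1 and C4b passed (0.2469 and 0.3375), and so did C3 (0.5747).

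The genes past the test moved from 2953 to 5006 (all 5 groups in one fit), 4456 (d10 replicates 1 to 3) and 7877 (replicates 4 and 5) for d10 against d6, and from 3473 to 6535, 5924 and 5920 for d14 against d10. For treated against untreated d10 tumors the 9 genes gave 1 call with DESeq2 and 5 with replicates 1 to 3, and all genes gave 460 with DESeq2, 0 without TMM, 49 without the filter, 133 with all groups, 5020 with replicates 1 to 3 and 108 with replicates 4 and 5. For treated d14 against untreated d10 tumors all genes gave 8100 and 8091 with these sets, and for the difference of the effects 6586 with replicates 1 to 3. Without TMM the median of all genes shifted by 0.146 on the log2 scale for treated d14 against untreated d10 tumors.

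Replicate numbers did not pair the tumors (30 same-number pairs, r from -0.319 to 0.351, 9 over 0.1). With the replicate number as a block, 5 of the 9 and 5442 of all genes passed for treated against untreated d10 tumors, 7 and 8534 for treated d14 against untreated d10 tumors, and 6177 of all genes for the difference of the effects. Numbers 4 and 5 occur in the untreated d10 group alone, so with the block these tumors carry no weight in the fold changes. In comparisons with untreated d10 tumors the block is therefore not separate from the fits with replicates 1 to 3. The fall of Serping1 from d10 to d14 was -0.71 with the block (edgeR, adjusted p = 0.059).

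With 1 tumor left out, all genes past the test ranged from 1263 to 3447 (d10 against d6), 624 (without untreated d14 replicate 2) to 4373 (d14 against d10), 2465 to 6788 (treated against untreated d14), 0 to 174 (on d10), 1759 to 5733 (treated d14 against untreated d10) and 1807 to 4206 (difference of the effects). The 9 genes gave 5 to 8 calls for d14 against d6 and 0 to 5 for treated d14 against untreated d10.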

Other observations

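Resident peritoneal macrophage markers (Timd4, Alox15, Cd5l, Selp, Icam2, Gata6 and Prg4) followed another course than the C1q genes from d6 to d10 of untreated growth. Their sum was at 531 to 738 normalized CPM at d6 and at 77.2 to 272 at d10, where C1qa was at 359 to 405 and at 371 to 653. From d6 to d10, 5 of the 7 markers fell (edgeR, adjusted p below 0.05), while none of the 3 C1q genes passed the test. At d14 the markers summed to 49.3 to 84.2 in untreated and to 86.7 to 121 normalized CPM in treated tumors. From d10 to d14, 3 of the 7 fell and none rose (median log2 fold change -1.02), and from d6 to d14 all 7 were lower. In treated relative to untreated d14 tumors 3 of 7 were higher and none lower (median 0.41). The direction in these 3 comparisons was that of the C1q genes, and the part of the markers was not tested.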
